A study of Mus musculus with 10 samples.

Results

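The 39 protein-coding HOX genes of the mouse were followed in colon organoids, with every gene of the deposited table named Hoxa, Hoxb, Hoxc or Hoxd plus a number taken as a member, out of 56748 genes in all. Of these 39 genes, 11 belong to HOXA, 10 to HOXB, 9 to HOXC and 9 to HOXD. The organoids, epithelial structures grown in culture from colon, were treated from 3 days after passage, for 2 days, with vehicle (5 libraries, replicates 1 to 5) or with 100 µM WY-14643 (5 libraries, replicates 6 to 10). WY-14643 activates PPARα, the nuclear receptor through which cells sense fatty acids. The labels name no genotype, age, region of the colon or source animal for either group, so the p-values below rest on the variation among these 10 libraries, some of which may be technical. Polyadenylated RNA was sequenced, 15618244 to 29271304 gene-assigned reads per library, and levels are given as FPKM. This unit corrects read number for the length of the gene and for the library, so that genes other than very short ones can be compared.

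HOX genes encode homeodomain transcription factors that give cells their position along the head-to-tail axis of the embryo. They lie in clusters, in which the order of the genes on the chromosome matches the order in which they are switched on and the position of their anterior limits, with low paralogue numbers at the anterior end and high numbers at the posterior end. Genes of the same number in different clusters are paralogues, descended from a shared ancestral gene. HOX patterns laid down in the embryo persist in many adult cells, in the gut in both epithelium and mesenchyme. HOX proteins bind DNA together with TALE homeodomain cofactors of the PBX and MEIS families, and CDX factors, relatives of the HOX family that specify intestine, act on HOX promoters.

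Colon organoids expressed 1 stretch of 1 cluster. The 7 genes from Hoxb3 to Hoxb9 had mean levels of 4.10 to 65.6 FPKM over the 10 libraries, and none of the other 32 members reached a mean of 0.5 FPKM. Of the 88764 reads assigned to HOX genes in all libraries together, 87905 fell on these 7 genes. The HOXA, HOXC and HOXD clusters together with Hoxb1, Hoxb2 and Hoxb13 held the remaining 859 reads.

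The HOXB cluster also carries microRNA genes whose products target HOX transcripts. The sequences below show how these could pair with the expressed members. Mature sequences are from RefSeq (build GRCm38.p6), with the seed, bases 2 to 8, in capitals. The miR-196 seed is shared by a gene in HOXB (Mir196a-1), one in HOXC (Mir196a-2) and one in HOXA (Mir196b), and the miR-10 seed by a gene in HOXB (Mir10a) and one in HOXD (Mir10b).
miR-196a-5p: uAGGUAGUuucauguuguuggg
miR-196b-5p: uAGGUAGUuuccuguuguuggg
miR-10a-5p: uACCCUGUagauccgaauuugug
miR-10b-5p: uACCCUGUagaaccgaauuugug

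The 3′ UTR of Hoxb8 held the closest full-length complement to miR-196a-5p of any gene. Each 3′ UTR of the GENCODE M21 transcripts (GRCm38) was scanned without gaps, and in Hoxb8, at bases 418 to 439 of the 845 bases of its 3′ UTR, 21 of the 22 microRNA bases formed Watson-Crick pairs and the other, base 5 counted from the microRNA's 5′ end, formed a wobble pair. No other of the 21053 genes scanned had as many pairs. Because base 5 lies in the seed, a search for the exact seed complement passes this site by. That search found a match to miR-196 in 9 of the 39 HOX genes, of which Hoxb6 and Hoxb7 were expressed, against 7.72% of 21153 genes, and a match to miR-10 in 4, of which Hoxb3 was expressed, against 14.1% of all genes. These are matches of letters and show no binding. The sites of the expressed members are shown with Watson-Crick pairs in capitals. The first 3 face miR-196a-5p and the last faces miR-10a-5p.
Hoxb8: CCCAACAACAUGAAACUgCCUA
Hoxb7: CuguAaAAaAauAuACUACCUA
Hoxb6: uggAAggAgcacAuACUACCUA
Hoxb3: ugacuuaaCGugaaaACAGGGUA

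A promoter is shown for Hoxb8, which among the 7 expressed genes varied most between vehicle libraries, because the CDX core motif searched below occurs in it repeatedly. RefSeq promoters (GRCm38.p6) were at hand for 22 of the 39 genes (24 promoters), in HOXB for Hoxb8, Hoxb4 and Hoxb1. In the 250 bases before each start, the CDX core was searched on both strands as TTTATG and as TTTATT. The first occurred in 10.8% of 32851 promoters and in 5 of the 24 HOX promoters, and the second in 18.1% and in 5 of 24. The Hoxb8 window (chr11:96281655-96281904, plus strand, 44.4% GC) held 3 of them, in capitals, at -157 to -152, at -143 to -138 (on the minus strand) and at -120 to -115 from the start. The windows of Hoxb4 (58.0% GC) and Hoxb1 (59.2% GC) held neither motif, while that of Hoxd4, a gene with a mean of 0.0412 FPKM, also held 3. A match of letters is a description and shows no binding.
Hoxb8 promoter: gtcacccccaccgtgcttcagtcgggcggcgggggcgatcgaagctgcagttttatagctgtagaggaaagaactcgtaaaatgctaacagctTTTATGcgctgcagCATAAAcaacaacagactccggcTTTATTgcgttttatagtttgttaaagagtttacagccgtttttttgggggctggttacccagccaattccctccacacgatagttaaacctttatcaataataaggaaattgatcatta

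The levels by cluster and paralogue group were as follows. HOXB (chr11:96085142-96259082 in mm39, the build of the table) summed to 129 to 263 FPKM per library and held 99.2% of the HOX reads. HOXA (chr6:52132570-52237788) summed to 0.835 to 1.81 FPKM, with 715 reads in all libraries together. HOXD (chr2:74498654-74595486) summed to between 0 and 0.161 FPKM with 35 reads, and HOXC (chr15:102829538-102945278) to between 0 and 0.0193 FPKM with 1 read.

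**Figure D1:**
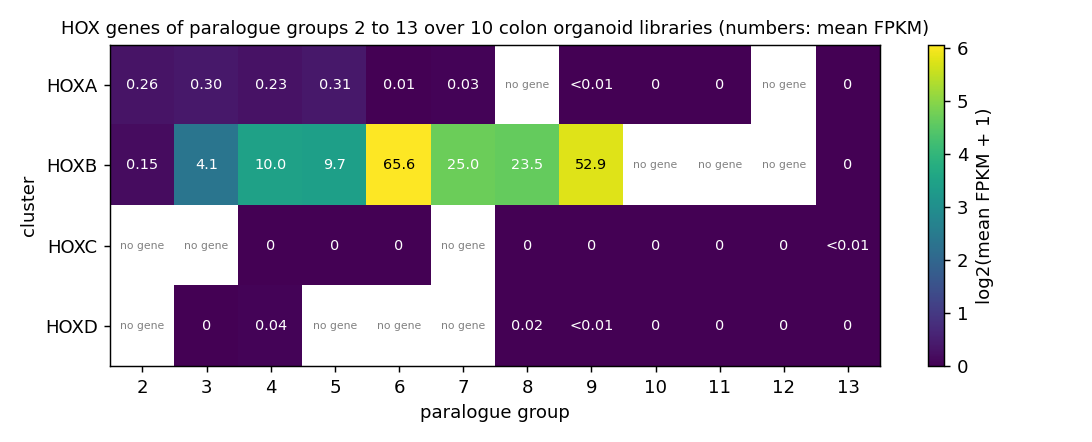
Mean FPKM over 10 libraries of the HOX genes of paralogue groups 2 to 13, by cluster (rows) and paralogue group (columns); colour gives log2 of the mean plus 1, and white fields have no gene. The expressed genes form an unbroken run in HOXB from group 3 (4.10 FPKM) to group 9 (52.9 FPKM), with their paralogues in the other clusters at 0.307 FPKM or less.

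In each of the paralogue groups 3 to 9 the HOXB gene was the only member with a mean of at least 0.5 FPKM. Their highest paralogues outside HOXB were Hoxa5 with a mean of 0.307 FPKM, Hoxa3 with 0.304 and Hoxa4 with 0.235, while in groups 6 to 9 no gene outside HOXB exceeded a mean of 0.0349 FPKM (Hoxa7). In group 2, towards the anterior end, Hoxa2 was highest with 0.256 FPKM. Hoxb1 and Hoxb2, the anterior neighbours of Hoxb3 on the same chromosome, had means of 0.00602 and 0.149 FPKM.

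Expression of the posterior end was not detectable at this depth. Of the 12 genes of paralogue groups 10 to 13, which pattern the hindmost trunk, limbs and urogenital tract, 11 had no read in any library, and the 12th, Hoxc13, had 1 read in vehicle replicate 3 (0.0193 FPKM). Among those without a read was Hoxb13, a gene known for its expression in distal colon and prostate. Hoxb13 lies on the posterior side of Hoxb9, 74.0 kb away, whereas the other neighbours in the cluster are 1.31 to 12.1 kb apart. In all, 18 of the 39 genes had no read in any library, among them 14 of the 18 genes of HOXC and HOXD. A count of 0 allows up to 3 reads, which for these 18 genes corresponds to 0.0245 to 0.185 FPKM depending on the gene and the library, and this limit covers counting error only.

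Between these extremes, 14 genes had some reads but a mean under 0.5 FPKM. The highest single values were 0.677 FPKM for Hoxa4 in WY-14643 replicate 10 and 0.621 FPKM for Hoxa5 in vehicle replicate 5, and no other gene of the 14 reached 0.5 in any library. Hoxa2 to Hoxa5 and Hoxb2 had reads in all 10 libraries. Hoxa3 was the one with most reads, 359 in total, at 0.408, 0.281, 0.378, 0.243 and 0.364 FPKM in vehicle replicates 1 to 5 and 0.304, 0.367, 0.289, 0.0561 and 0.352 FPKM in WY-14643 replicates 6 to 10. Its lowest library, WY-14643 replicate 9, held 6 reads. Other genes of the table overlap the HOXA genes, and the labels leave the strand setting unstated, so reads of antisense partners cannot be told apart from those of these low genes. Members also overlap on the same strand, with Hoxa3 spanning Hoxa4 to Hoxa6, Hoxc5 spanning Hoxc6 to Hoxc9 and Hoxd3 spanning Hoxd4. The limit given above for counts of 0 does not cover reads shared by such genes.

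The libraries were those of an epithelium. The 10 epithelial markers summed to 3927 to 7567 FPKM per library, Epcam alone standing between 364 and 579 FPKM. The 14 markers of mesenchyme, a tissue with its own HOX pattern, summed to 0.553 to 1.28 FPKM in vehicle and 0.603 to 1.08 FPKM in WY-14643, with 4 of the 14 (Dcn, Lum, Foxf1 and Twist1) at 0 in every library. The other 10 had reads, and 1 of them, Tagln, had a mean of at least 0.5 FPKM (0.543), while Col1a1 averaged 0.0889 FPKM and Pdgfra 0.0153. Summed markers were at most 0.941 FPKM for endothelium, 1.68 for neurons and glia and 6.64 for immune cells, the last nearly all from Cd68 (mean 3.74 FPKM), with Cd3e at 0. Of the colon markers, Car1 ranged from 21.0 to 1626 FPKM, and Car4 was at 0. In bulk RNA, fewer cells of a type and less RNA per cell cannot be told apart.

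Within HOXB the levels did not follow the order of the genes step by step. The means of Hoxb6 to Hoxb9 were nevertheless all above those of Hoxb5, Hoxb4 and Hoxb3. From the posterior to the anterior side, the means were 52.9 FPKM for Hoxb9, 23.5 for Hoxb8, 25.0 for Hoxb7, 65.6 for Hoxb6, 9.68 for Hoxb5, 9.97 for Hoxb4 and 4.10 for Hoxb3. Hoxb6 and Hoxb9 formed the highest band; Hoxb6 was above Hoxb9 in 7 of 10 libraries, with a ratio of 0.766 to 1.84, so their order did not exceed the spread. Hoxb9 was above Hoxb7 in 10 of 10 libraries, by 1.74 to 2.37 times. Hoxb7 and Hoxb8 formed the middle band, with Hoxb7 higher in 7 of 10 libraries (ratio 0.676 to 2.34). Hoxb8 was above Hoxb4 in all 10, by 1.21 to 2.81 times. Hoxb4 and Hoxb5 were not separated (Hoxb4 higher in 6 of 10), and Hoxb5 was above Hoxb3 in all 10, by 1.80 to 3.03 times.

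**Figure D2:**
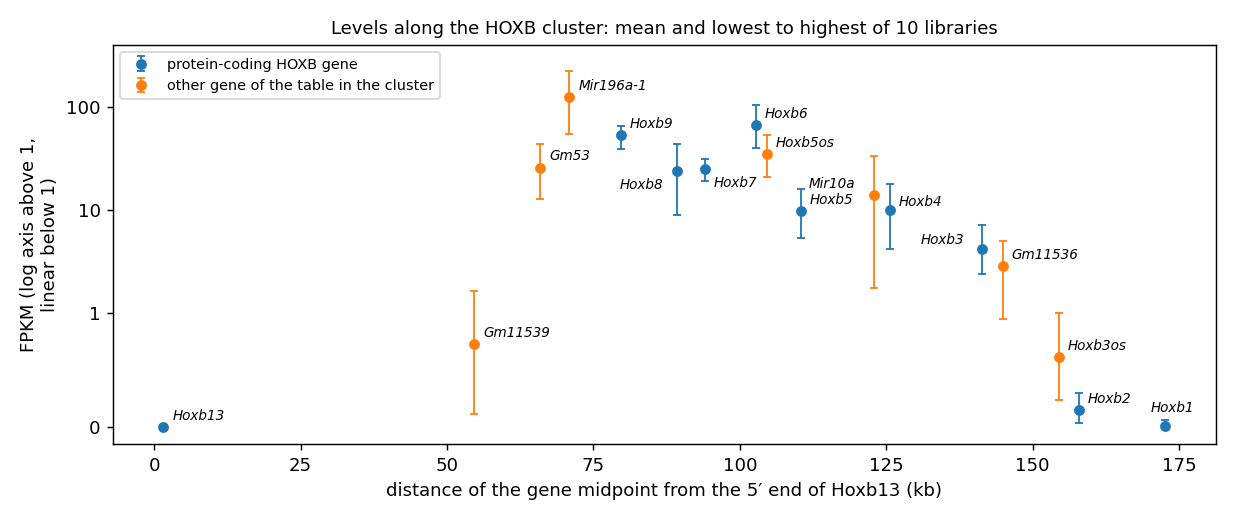
Mean FPKM (points) and lowest to highest of 10 libraries (bars) along the HOXB cluster, by distance in kb of each gene's midpoint from the 5′ end of Hoxb13; the axis is linear below 1 and logarithmic above. Hoxb13, at the left, is at 0, and Hoxb2 and Hoxb1 at the right are below 0.2. The genes from Gm53 to Gm11536 stand between 2.85 and 124 FPKM on average. The 124 FPKM is that of Mir196a-1, whose 102 bases are too short for comparison with longer genes.

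As shares of the summed HOXB level, Hoxb6 took 29.0% to 39.7% (median 32.8%) and Hoxb9 19.9% to 37.8% (median 29.7%). Hoxb8 ranged from 6.43% to 17.1%. Hoxb3 took 1.71% to 2.80%, the smallest share of the 7 in every library.

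Other genes of the table lie inside the clusters, and those of HOXB were expressed along with it. Of 47 such genes, 9 had a mean of at least 0.5 FPKM, 7 of them among the 10 in HOXB and 2 among the 20 in HOXA, and none of the 7 in HOXC had a read. Gm53, a long noncoding RNA gene on the posterior side of Hoxb9 (chr11:96141924-96160126, plus strand), had a mean of 25.6 FPKM. Mir196a-1 lies within the span of Gm53 and had a mean of 124 FPKM over its 102 bases. At so short a length FPKM does not compare with that of longer genes. Mir196a-1 had 92 to 571 reads per library, against 941 to 5260 for Gm53. In poly-A selected libraries such reads come from the region of the primary transcript, not from the mature microRNA, whose level was not measured. Hoxb5os, whose span on the opposite strand covers Hoxb5 and Hoxb6, stood at 34.7 FPKM, above the 9.68 FPKM of Hoxb5 itself. Mir10a, between Hoxb5 and Hoxb4, had a mean of 13.8 FPKM over its 110 bases, from 3 to 84 reads per library. Gm11536 and Hoxb3os, opposite to Hoxb3 and Hoxb2, had 2.85 and 0.612 FPKM, and the pseudogene Gm11539 had 0.722 FPKM. Since the strand setting is unstated, reads of Hoxb5 or Hoxb6 and Hoxb5os, and of Hoxb3 and its antisense neighbours, cannot be told apart where they overlap. The microRNA genes of the other clusters that share these seeds, Mir196b and Mir196a-2, had no read, and Mir10b had a mean of 0.137 FPKM.

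The per-library values of the 7 expressed genes showed the same libraries high or low in both groups. Hoxb6 (chr11:96183302-96192395, plus strand), a gene of the trunk region, stood at 45.8, 95.3, 54.8, 41.3 and 78.6 FPKM in vehicle replicates 1 to 5 and at 40.0, 104, 57.9, 44.6 and 93.7 FPKM in WY-14643 replicates 6 to 10. Replicates 2, 5, 7 and 10 were the 4 highest, and the groups overlapped.

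Hoxb9 (chr11:96162283-96167421), the most posterior gene expressed, stood at 47.4, 62.3, 59.5, 38.8 and 54.4 FPKM in vehicle and at 52.2, 65.3, 57.8, 40.2 and 50.8 FPKM in WY-14643. Its 4 highest libraries were replicates 2, 3, 7 and 8, another set than that of Hoxb6. Its spread was small, with 1.60-fold between the highest and the lowest vehicle library.

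Hoxb7 (chr11:96177449-96180988) stood at 20.8, 27.1, 25.7, 19.0 and 28.1 FPKM in vehicle and at 22.03, 31.0, 24.7, 22.6 and 29.1 FPKM in WY-14643. It was the steadiest of the 7, with 1.48-fold between vehicle libraries. Hoxb8 (chr11:96172731-96176141), its neighbour 1.31 kb away, stood at 8.89, 31.7, 20.4, 14.3 and 40.5 FPKM in vehicle and at 11.6, 28.2, 22.3, 14.2 and 43.1 FPKM in WY-14643. It was the most variable of the 7 in vehicle, with 4.55-fold between replicates 1 and 5, while among WY-14643 libraries Hoxb4 spread by 4.26-fold and Hoxb8 by 3.70-fold.

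Hoxb5 (chr11:96194162-96196947), whose product is known for a role in the enteric nervous system, stood at 5.70, 15.1, 7.20, 5.26 and 13.7 FPKM in vehicle and at 5.65, 16.0, 8.35, 6.37 and 13.5 FPKM in WY-14643. Hoxb4 (chr11:96209093-96212464), known for its action in blood stem cells, stood at 7.35, 11.6, 8.46, 7.32 and 15.6 FPKM in vehicle and at 4.15, 12.7, 8.41, 6.37 and 17.7 FPKM in WY-14643. Hoxb3 (chr11:96214152-96238756), a gene of hindbrain patterning, stood at 2.36, 5.27, 3.59, 2.92 and 5.33 FPKM in vehicle and at 2.36, 5.27, 3.78, 3 and 7.15 FPKM in WY-14643. In all 3 genes replicates 2, 5, 7 and 10 were the highest, and the groups overlapped.

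**Figure D3:**
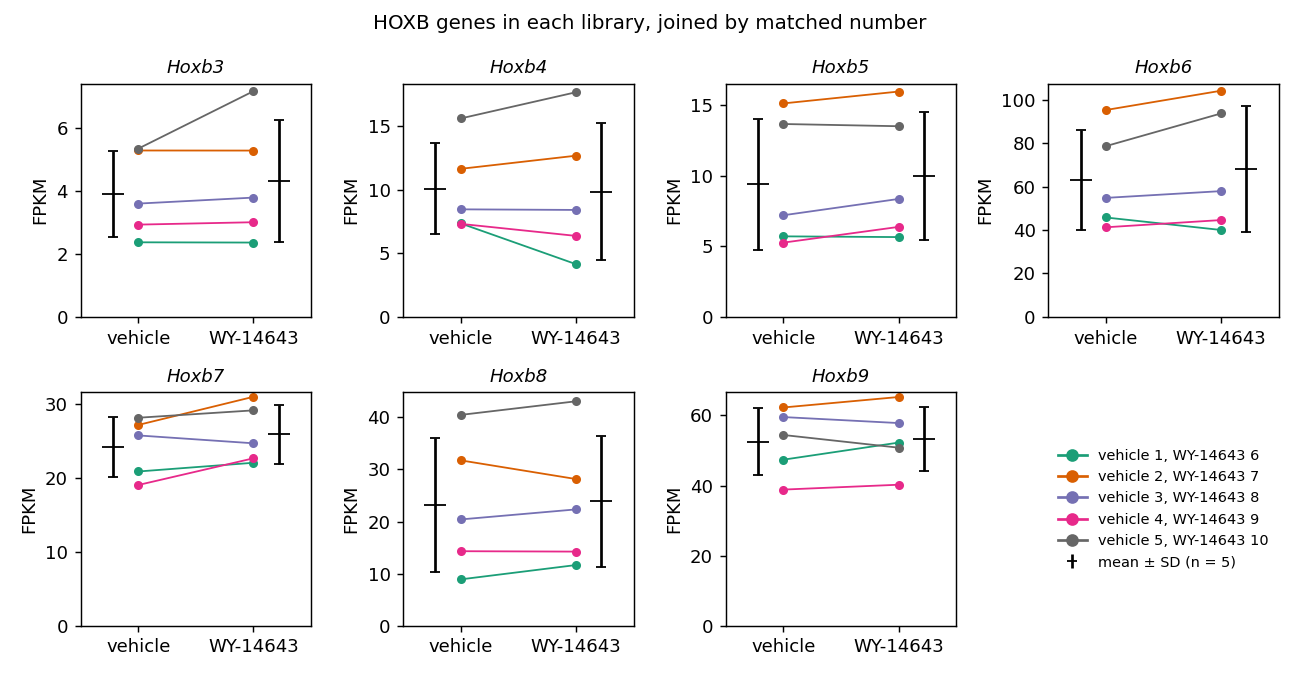
FPKM of the 7 expressed HOX genes in each of 10 libraries; lines join vehicle replicate 1 with WY-14643 replicate 6 and so on, and black bars give the mean ± SD of 5 libraries. Lines are mostly flat, and the lowest and highest are far apart, as for Hoxb8 between 8.89 and 11.6 FPKM in the lowest pair and 40.5 and 43.1 FPKM in the highest. Some lines lie close and cross, as for Hoxb6 in replicates 1 and 6 (45.8 and 40.0 FPKM) and 4 and 9 (41.3 and 44.6 FPKM).

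The libraries of the 2 groups thus went in pairs by number, vehicle replicate 1 with WY-14643 replicate 6 up to 5 with 10. This pairing is seen in the data and follows the numerical order, but no label states it. In the 13600 tested genes other than HOX, the deviations of such a pair from the group means correlated across genes at 0.423 to 0.782, and those of any other vehicle and WY-14643 library at no more than 0.0598. The pair accounted for 88.0% (Hoxb7) to 98.4% (Hoxb5) of the variance of log2(FPKM + 1) of the 7 HOX genes, with a median of 96.6%, beside a median of 83.6% over all 13607 tested genes. Treatment accounted for a median of 0.729% in the HOX genes and 2.27% over all genes. The coefficient of variation between vehicle libraries had a median of 35.3% in the 7 genes and 21.5% over all genes. These are descriptions of the members, with no test of the difference.

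Cdx2, a regional factor of the intestinal epithelium, was high in the same libraries as most HOXB genes. Cdx2 stood at 63.9, 138, 102, 72.0 and 125 FPKM in vehicle and at 71.3, 136, 108, 83.6 and 143 FPKM in WY-14643. Replicates 2, 5, 7 and 10 were its 4 highest. The same held for Hoxb3 to Hoxb8 and for Gm53, Mir196a-1, Hoxb5os and Hoxb3os. Hoxb8 and the microRNA gene whose product matches its 3′ UTR were thus high in the same libraries. This set is made of 2 whole pairs, and the pair accounted for a median of 83.6% of the variance over all 13607 tested genes. How many of these genes share the set was not counted. Hoxb9 did not share this set, and neither did Cdx1, a close relative of Cdx2, whose 4 highest were replicates 2, 3, 7 and 8, those of Hoxb9. Krt20, a keratin of differentiated surface cells, was lowest where Hoxb8 was highest, with 6.12 FPKM in vehicle replicate 5 and 6.92 FPKM in WY-14643 replicate 10 against 54.9 to 169 FPKM in the other 8 libraries. What part differentiation, the source of the organoids or the culture had in these differences between libraries was not tested.

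**Figure D4:**
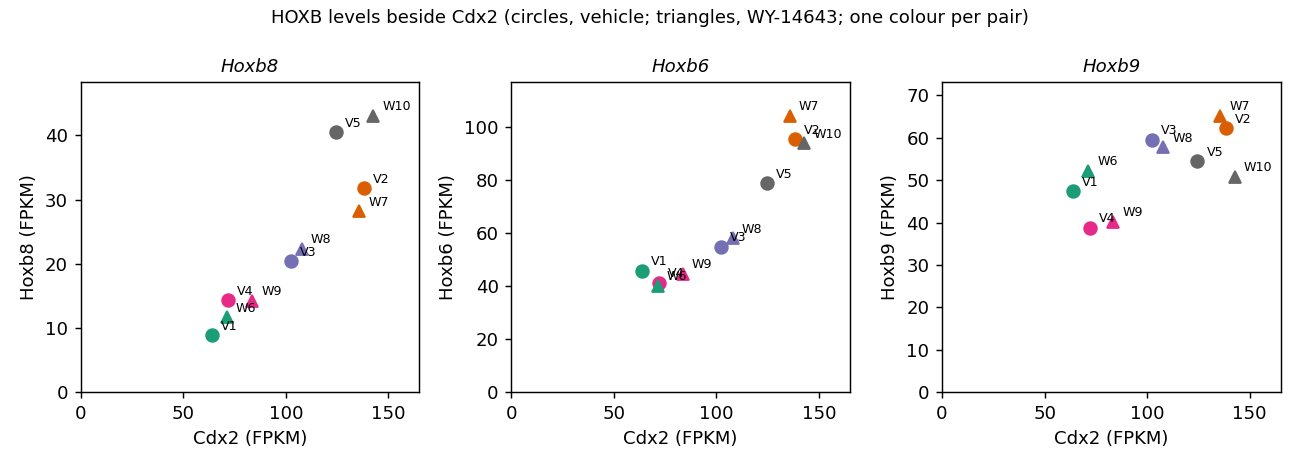
FPKM of Hoxb8, Hoxb6 and Hoxb9 (vertical axes) against Cdx2 (horizontal axes) in 10 libraries; V and W with a number are vehicle and WY-14643 replicates, and paired libraries share a colour. Hoxb8 and Hoxb6 are high in replicates 2, 5, 7 and 10, where Cdx2 is 125 to 143 FPKM, while Hoxb9 in replicates 5 and 10 is no higher than 54.4 FPKM.

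The comparison of WY-14643 with vehicle asked whether activation of PPARα altered HOX levels, and no HOX gene passed the test. Only the 7 genes with a mean of at least 0.5 FPKM entered it; the other 32 members were too low. By limma on log2(FPKM + 1), 0 of the 7 passed an adjusted p of 0.05, beside 0% of the 13607 genes tested (205 genes, none of them HOX, had an unadjusted p under 0.05). By voom on the recovered reads the count was also 0, with 187 genes at an unadjusted p under 0.05 and none of them HOX. The median difference was 0.08 on the log2(FPKM + 1) scale in the HOX genes and -0.01 over all genes tested.

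The fit without pairs left wide intervals. Hoxb8 averaged 23.2 ± 12.9 FPKM (SD, n = 5) in vehicle and 23.9 ± 12.6 FPKM (SD, n = 5) in WY-14643, a log2 fold change of 0.08 with a 95% interval of -0.88 to 1.04. Hoxb6 averaged 63.2 ± 23.0 and 68.1 ± 29.2 FPKM, a log2 fold change of 0.08 (interval -0.62 to 0.77). The narrowest interval was that of Hoxb7, with 24.2 ± 4.01 and 25.9 ± 3.97 FPKM and a log2 fold change of 0.10 (interval -0.21 to 0.40). Hoxb7, Hoxb4 and Hoxb3 had the smallest p-values of the 7, with log2 fold changes of 0.10 (SE 0.14), -0.12 (SE 0.34) and 0.09 (SE 0.26), and limma's adjusted p was 0.99999 for each.

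With the pairs as a block the intervals became narrow, and still no HOX gene passed. This limma fit called 43 genes (39 higher and 4 lower with WY-14643), 0.316% of those tested. It called 0 of the 7 HOX genes, whose adjusted p ranged from 0.563 to 0.902. Its unadjusted p was under 0.05 for 1438 genes, none of them HOX. The intervals of the log2 fold change were then -0.10 to 0.25 for Hoxb8, -0.08 to 0.23 for Hoxb6, -0.03 to 0.22 for Hoxb7, and -0.09 to 0.13 for Hoxb9. They were -0.03 to 0.22 for Hoxb5 and -0.07 to 0.25 for Hoxb3. In this fit Hoxb4 had the widest, -0.42 to 0.18, with 7.35 FPKM in vehicle replicate 1 and 4.15 FPKM in WY-14643 replicate 6, a ratio of 0.564, while its other pairs had ratios up to 1.13. None of the intervals reached a doubling or a halving. A p above the threshold does not show that the groups were alike, and changes within these intervals were not detectable here.

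**Figure D5:**
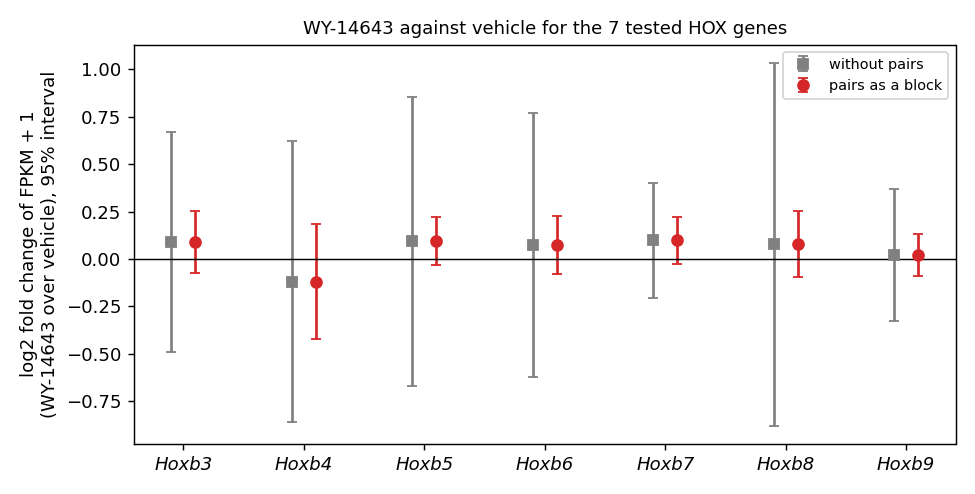
Log2 fold change of FPKM + 1 (WY-14643 over vehicle) with its 95% interval for the 7 tested HOX genes, by limma without pairs (grey squares) and with pairs as a block (red circles). All intervals include 0, and those of Hoxb8 shrink from -0.88 to 1.04 without pairs to -0.10 to 0.25 with them.

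Counts over pairs were as even. WY-14643 was higher in 4 of 5 pairs for Hoxb6 and Hoxb7, in 3 of 5 for Hoxb3, Hoxb5, Hoxb8 and Hoxb9, and in 2 of 5 for Hoxb4. Thus 0 of the 7 were higher in all 5 pairs, as were 5.63% of all tested genes, and 0 were lower in all 5, as were 6.09%. In none of the 7 did the groups fail to overlap, beside 0.353% of all tested genes. Ratios within pairs ran from 0.874 to 1.19 for Hoxb6, from 0.933 to 1.10 for Hoxb9 and from 0.887 to 1.31 for Hoxb8.

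Among the other genes inside the clusters, none passed either. Mir196a-1 was higher with WY-14643 in 5 of 5 pairs, at 54.4, 193, 82.3, 84.6 and 147 FPKM in vehicle and 56.8, 220, 111, 99.7 and 193 FPKM in WY-14643, with an adjusted p of 0.184 by limma with pairs as a block. Its host Gm53 was higher in 4 of 5. Gm15050, a long noncoding RNA gene within HOXA, had 1.16, 0.811, 0.773, 1.15 and 1.10 FPKM in vehicle and 0.342, 0.432, 0.326, 0.814 and 0.626 FPKM in WY-14643, lower in 5 of 5 pairs with the groups overlapping. These values rest on 3 to 13 reads per library, and limma's adjusted p was 0.99999 without pairs and 0.159 with them.

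Genes that act with or upstream of HOX were read from lists. Of 9 TALE cofactors, which form dimers with HOX proteins on DNA, 6 were expressed at a mean of at least 0.5 FPKM, among them Pbx2 with 11.3 FPKM, Pknox1 with 4.02 and Meis3 with 2.33. Meis1 and Pknox2 were at 0 in every library, and Meis2 had a mean of 0.0110 FPKM. All 22 chromatin regulators of the Polycomb and Trithorax groups and their partners, which keep HOX clusters silent or active, were expressed, from Cbx2 with 3.30 FPKM to Suz12, a subunit of Polycomb repressive complex 2, with 41.6 FPKM. Of 11 ParaHox and gut regional factors in the table, 5 were expressed, led by Cdx2 (104 FPKM) and Cdx1 (29.0 FPKM), and the ParaHox genes Cdx4, Gsx1 and Gsx2 were at 0.

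Retinoic acid, made from vitamin A, is a known inducer of HOX genes. Of 18 genes of its synthesis, breakdown and reception, 10 were expressed, and the receptors Rarg (11.3 FPKM), Rxra (12.03 FPKM) and Rxrb (12.8 FPKM) were among them. Stra6, the vitamin A importer, and Aldh1a3, a retinaldehyde dehydrogenase, had an order opposite to that of Hoxb8 at its extremes, lowest in replicates 5 and 10 and highest in replicates 1 and 6. This order was not that of the list as a whole. Aldh1a1, another retinaldehyde dehydrogenase, was highest within each group in vehicle replicate 5 and WY-14643 replicate 10, as Hoxb8 was. Stra6 stood at 26.2, 5.52, 13.4, 7.89 and 2.41 FPKM in vehicle and at 21.0, 2.67, 9.01, 5.39 and 1.77 FPKM in WY-14643. Of 11 posterior signalling inputs 6 were expressed, led by the WNT target Axin2 (19.6 FPKM), and of 5 geminin and SMAD partners all 5 were. In none of these 6 lists did any gene pass in either limma fit, and the smallest adjusted p, that of Stra6 with pairs as a block, was 0.0840.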

How the data were processed

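One deposited table of 56748 genes holds FPKM made by the authors for 10 polyadenylated RNA libraries of colon organoids. The submitters' processing notes name build mm39, the aligner HISAT2 (2.0.5) and the counter featureCounts (1.5.0-p3). Which annotation release, strand setting and library scaling were used is not given in the sources used here. FPKM times gene length, divided by the smallest such value of a library, gave whole reads for 100% of values above 0 (tolerance 0.01), 15618244 to 29271304 per library. These reads served for depth and a voom alternative. Genes with a mean of at least 0.5 FPKM (13607, of which 7 HOX) were tested with limma 3.58.1 in R 4.3.3 on log2(FPKM + 1), eBayes with trend and robust priors, without covariates, with Benjamini-Hochberg adjustment over all of them and a threshold of 0.05. Fold changes are on that scale and understate changes of low genes. Replicate numbers are not shared between groups, so pairing by numerical order is an alternative. Only the limma fit without pairs was tested on simulated data, in which, unlike here, libraries did not differ by pair. The fit with pairs and voom were not tested in this way. Figures used matplotlib 3.10.9 in Python 3.11.15.

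Members and lists were chosen with earlier results of these data known. All members enter the counts; per-library values are given for those with a mean of at least 0.5 FPKM, and the 3 smallest p-values with SE. Other genes named are those inside a cluster with a mean of at least 0.5 FPKM, up to 4 per list by level or p, and markers of cell types; Hoxa3, Krt20 and Aldh1a3 were chosen after their values were seen. Of the lists, Prac1, Tbxt and Si matched no gene name. Promoters and microRNAs came from RefSeq tables (GRCm38.p6) and 3′ UTRs from GENCODE M21, matched by symbol, since no sequence of mm39 was used. Some genes of the lists and members are not reported here.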

Additional observations from a re-analysis of the deposited data

Results flagged for a closer look

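In 34 genes, both groups of 5 libraries were checked for a library that stood apart from the other 4 by more than 0.71 of the group's range (Dixon's 95% value), which chance gives in about 1 in 20 groups. Of the 68 groups 7 had one. Among HOX genes it was Hoxa3 in WY-14643 replicate 9, at 0.0561 FPKM (6 reads) against 0.289 to 0.367 in the others. In the HOXB cluster it was Gm11539 in vehicle replicate 4, at 0.228 FPKM (2 reads) against 0.734 to 0.927. Among list genes, Meis3 was highest in WY-14643 replicate 10 at 2.76 FPKM, Aldh1a1 lowest in WY-14643 replicate 9 at 33.7 FPKM, and Epcam highest in WY-14643 replicate 7 at 499 FPKM. Aldh1a3 was highest in vehicle replicate 1 at 106 FPKM, against 1.62 to 24.2 in the other vehicle libraries, and in its matched WY-14643 replicate 6 at 127 FPKM, against 0.870 to 19.4.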

How the results depend on the processing

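No HOX gene was called under any alternative run: a pseudocount of 0.1, a lower filter or none, scaling by the median ratio or to a common sum, voom, library weights, pairs as a block, or leaving out any library or pair. The number of genes called over all genes was 0 as reported, 43 with pairs as a block and 21 with library weights, which favoured vehicle replicate 3 and WY-14643 replicate 8; it was 0 under the other settings with all libraries. Without 1 library it ranged from 0 to 2 (1 without vehicle replicate 2 or WY-14643 replicate 10, 2 without vehicle replicate 5). With pairs as a block and 1 pair left out it ranged from 2 to 33 (3 without pair 2 and 7, 2 without 3 and 8, 13 without 4 and 9). The cause was not tested. Without pair 1 and 6, or without 3 and 8, 1 of the 7 HOX genes had an unadjusted p under 0.05 by limma with pairs as a block. At a mean of at least 0.1 FPKM 13 HOX genes counted as expressed, with Hoxa2 to Hoxa5 and Hoxb2 among those added, and at 1 FPKM the same 7.

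In the fit without pairs, the directions of the log2 fold changes were unsteady. Each run without 1 library leaves its partner unmatched, and the pair accounted for 88.0% (Hoxb7) to 98.4% (Hoxb5) of the variance of these genes. What part this had in the changes of sign was not tested. Fold changes with a whole pair left out are not given here. Leaving out 1 library gave -0.083 to 0.24 for Hoxb3, -0.35 to 0.11 for Hoxb4, -0.087 to 0.28 for Hoxb5, -0.10 to 0.24 for Hoxb6, -0.20 to 0.32 for Hoxb8 and -0.078 to 0.12 for Hoxb9, with Hoxb7 at 0.019 to 0.15. Hoxb9 also turned to -0.024 with library weights. The values were -0.021 (Hoxb6), -0.0082 (Hoxb9), -0.20 (Hoxb8), -0.035 (Hoxb5), -0.035 (Hoxb3) without vehicle replicate 1 and -0.057 (Hoxb6), -0.078 (Hoxb9), -0.041 (Hoxb8), -0.059 (Hoxb5) without vehicle replicate 4. Hoxb4 turned to 0.04 without vehicle replicate 5 and to 0.11 without WY-14643 replicate 6. Without WY-14643 replicate 7 the values were -0.10 (Hoxb6), -0.053 (Hoxb9), -0.015 (Hoxb8), -0.087 (Hoxb5). Without replicate 8 Hoxb9 stood at -0.010, and without replicate 10 the values were -0.065 (Hoxb6), -0.16 (Hoxb8), -0.031 (Hoxb5), -0.083 (Hoxb3). The 4 genes from Hoxa2 to Hoxa5 rest on few reads (74 to 359 each in all libraries together).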

Other observations

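Within the retinoic acid list, Aldh1a1, a retinaldehyde dehydrogenase, was higher with WY-14643 in 5 of 5 pairs, at 27.7, 24.1, 14.7, 9.03 and 35.6 FPKM in vehicle and 46.6, 48.4, 48.5, 33.7 and 50.2 FPKM in WY-14643. The groups overlapped, and the log2 fold change of 1.13 had an adjusted p of 0.99999 by limma without pairs and 0.113 with pairs as a block.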
